A study of Mus musculus with 6 samples.

Results

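The cells described here carry the label NK cells in the authors' annotation, which gave each cell the immune reference profile that it correlated with best. They numbered 4398 of 33961 cells (12.95%, exact binomial 95% interval 12.6 to 13.3). The cells were CD45+ bead enriched TILs, that is, cells drawn with antibody-coated beads meant for leukocytes. They came from tumors of CT26, a mouse colorectal carcinoma line, grown in Balb/c females. By label not all were leukocytes, as 15687 of the 33961 cells carried the label Stroma. Tumors were taken 5 days after treatment, and mRNA of single cells was sequenced from droplets, where a unique molecular identifier (UMI) marks each captured transcript. The sample labels list 6 tumors, 2 each for vehicle, low dose and high dose of the PD-1 GITR-L bispecific antibody. The high dose is 30 mg/kg, and for the low dose the fields differ, with 10 mg/kg in the first and 30 mg/kg in the other. The study's text names a further dose and an isotype control for this experiment, so that the dose and the control remain uncertain here. The count table names 4 libraries, M1, M2, M5 and M6, and no source used here pairs a library with a tumor or a dose. No library was therefore compared with another as treated or untreated, no p-value is given, and each value below is a description, library by library.

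Natural killer (NK) cells are innate lymphocytes that kill stressed, infected or malignant cells without a rearranged antigen receptor. They weigh signals from activating receptors, such as NKp46 and NKG2D, against those from inhibitory receptors for MHC class I, which in mice include the Ly49 family encoded by the *Klra* genes. Killing is carried out by perforin, which opens the target membrane, and by granzymes, the granule proteases that enter through it.

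NK-labelled cells were 9.87% of the cells of M1 (9.30 to 10.5), 10.0% of M2 (9.42 to 10.7), 17.6% of M5 (16.7 to 18.5) and 16.2% of M6 (15.4 to 17). The shares of M1 and M2 were thus below those of M5 and M6. Among the 15001 cells with any lymphocyte label the share was 31.2% in M1 and 29.1% in M2, with 28.6% in M5 and 28.8% in M6, so on this denominator the libraries lay close together. Intervals here and below cover counting error only.

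The NK-labelled cells held 39555984 UMIs, with a median per cell of 4213.5 in M1 and 5569 in M2, with 6051.5 in M5 and 5612 in M6. The study's filter was more than 500 UMIs, and no cell in the table was at or under 500, the shallowest NK-labelled cell holding 1220. Of 33850 distinct cell barcodes, 111 occurred in more than 1 library, and 2 were NK-labelled in more than 1. A scrublet doublet score over 0.25 was found in 47 NK-labelled cells (1.07%), against 606 cells (1.78%) of the whole table. Levels are given as CPM, in which summed counts of a label and library are divided by their own total and put on the customary scale. RNA of other cell types was measured too. The summed level of 10 macrophage and monocyte markers was 447 CPM in M1 and 373 in M2, with 183 in M5 and 151 in M6, against 11106 in the Myeloid label. The summed level of 5 neutrophil markers was 263 CPM in M6 and between 14.3 and 36.1 CPM in the other libraries. The part that such RNA has in the values below was not tested, and markers are given again where they bear on a result.

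The label was checked first against *Ncr1*, *Gzma*, *Prf1* and *Eomes*. With 3′ counting 1 UMI stands for 1 transcript whatever its length, so that CPM needs no correction for length. *Ncr1* (chr7:4337724-4345164, GRCm38), which encodes the activating receptor NKp46, had 433 CPM in M1 and 491 in M2, with 443 in M5 and 438 in M6. *Eomes* (chr9:118478212-118486132), the T-box factor of the NK lineage, had 304, 325, 282 and 302 CPM in the same order. Both genes were even across the libraries, and in the T cell EFF label (effector T cells) they had 19.2 and 32.2 CPM. *Gzma* (chr13:113093825-113100981), encoding granzyme A, had 13805 CPM in M1 and 12033 in M2, with 17180 in M5 and 16085 in M6, and *Prf1* (chr10:61297833-61304680), encoding perforin, had 1623, 1584, 1963 and 1892 CPM. Outside the mitochondrial and ribosomal protein genes, only *Tmsb4x*, at 24251 CPM, exceeded *Gzma*. All of these genes are at home in NK cells, and the label was kept. It was itself drawn from expression, so that these levels are a check and no finding.

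A deeper cell is more likely to show a UMI of any gene. Cells were therefore thinned at random to 2000 UMIs, which left 4218 NK-labelled cells and dropped 180 shallower ones. After thinning, 98.2% carried a *Gzma* UMI, 85.4% a *Prf1* UMI, 54.1% an *Ncr1* UMI and 48.5% an *Eomes* UMI. Without thinning the shares were 98.5%, 94.2%, 80.0% and 79.2%. B cells, which should lack these transcripts, served as a measure of background such as free RNA. After thinning, 16.1%, 3.57%, 1.79% and 0.893% of 112 B cells carried a UMI of these genes. The median depth of the thinned cells before thinning was 2897.5 UMIs in B cells and 5693.5 in the NK label. *Gzma* UMIs were thus in many cells that should lack them, and those of the other markers in few. Free RNA, doublets and mislabelled cells were not told apart as their source.

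The ILC label (innate lymphoid cells, 4628 cells) was used for the closest comparison among the 11 other labels. Both labels were drawn from expression, so that the differences between them are in part set by the labelling. The counts below describe the labels and are no test of them. Of 13 genes for NK identity, 11 were higher in the NK label in each of the 4 libraries by any amount and 0 lower, where 19.8% of 8207 genes tested were higher and 23.7% lower. At 1.5-fold or more, 12 of the 8207 genes (0.146%) were higher in the NK label than in the ILC label in each library, and 244 (2.97%) were lower. The 12 genes were *Gzma*, *Eomes*, *Itga2*, *Klra4*, *Klra7*, *Ccl5*, *Arl4d*, *Nrarp*, *Phactr3*, *Ret*, *Serpinb9b* and *Tmem108*. *Phactr3*, *Ret* and *Tmem108* are on no list and are named because they passed. The 12 include the gene of the integrin CD49b (*Itga2*), a chemokine gene and a pair of Ly49 genes, whose counts are uncertain, as given below. *Ncr1* was not among them, at 450 CPM in the NK label and 422 in the ILC label. *Klra7* had 384 against 165 CPM, *Itga2* 41.6 against 16.6, *Eomes* 301 against 152 and *Ccl5* 3096 against 1163. Against the T cell EFF label 306 of 8477 genes (3.61%) were higher and 456 (5.38%) lower by the same rule.

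**Figure D1:**
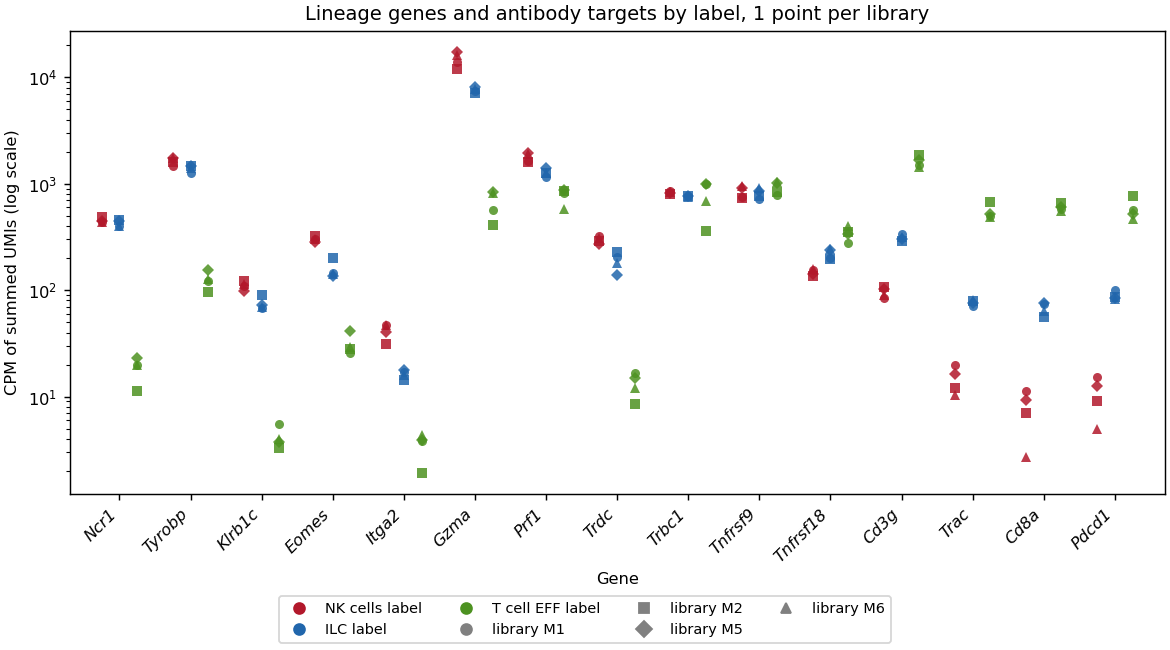
CPM of summed UMIs (log scale) for 15 genes in the NK cells, ILC and T cell EFF labels, with 1 point for each library and label. *Ncr1* and *Tyrobp* lay at a like level in the NK and ILC labels and far lower in T cell EFF, *Trac*, *Cd8a* and *Pdcd1* ran the other way, and *Trbc1* lay between 795 and 847 CPM in the NK label, between 745 and 773 in the ILC label and between 357 and 1004 in T cell EFF, where M2 was lowest.

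By the rule for naming, the 15 genes that stood out from the highest other label were led by *Itga2*, with a log2 ratio (pseudocount 1 CPM) of 1.28, *Serpinb9b* with 1.23, *Klra7* with 1.21, *Eomes* with 0.98 and *Gzma* with 0.97. *Nrarp*, a Notch feedback regulator, followed with 0.94, *Klra3* with 0.83, the transcription factor gene *Myb* with 0.79, *Klrg1* with 0.71 and *Trdc* with 0.70. The others were *Arl4d*, *Tmem37*, *Rasl11b*, *Sema6a* and *Qrfp*, the last with 0.65. For each of the 15 genes the highest other label was ILC. These ratios too are between labels that were drawn from expression.

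Several granule proteases varied widely from cell to cell, and 5 of them lie in 1 gene cluster. *Gzmb* and *Gzmc* to *Gzmg* form a run of genes on the minus strand of chromosome 14, from *Gzme* (chr14:56117626-56120625), *Gzmd* (chr14:56129556-56132608), *Gzmg* (chr14:56156582-56159579), *Gzmf* (chr14:56205263-56211417) and *Gzmc* (chr14:56231441-56234656) to *Gzmb* (chr14:56258838-56262260). Because *Gzmc* to *Gzmg* were found in the same cells, as given below, the 130 bases before the RefSeq start of each are shown (GRCm38.p6, minus strand, 5′ to 3′), with TGACGTCA (the cyclic AMP response element) and TGTGGT (the core bound by Runx factors) in capitals where either strand held them.

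*Gzmc*, chr14:56234658-56234787: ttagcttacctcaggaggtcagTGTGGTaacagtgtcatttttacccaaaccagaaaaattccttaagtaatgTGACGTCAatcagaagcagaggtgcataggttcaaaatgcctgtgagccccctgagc

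*Gzmd*, chr14:56132594-56132723: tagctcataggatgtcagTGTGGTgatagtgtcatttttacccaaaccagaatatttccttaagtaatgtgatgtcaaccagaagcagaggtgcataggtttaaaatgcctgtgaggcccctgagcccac

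*Gzme*, chr14:56120626-56120755: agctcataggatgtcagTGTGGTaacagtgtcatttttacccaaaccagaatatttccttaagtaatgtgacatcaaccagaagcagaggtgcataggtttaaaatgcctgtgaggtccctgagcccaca

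*Gzmf*, chr14:56211408-56211537: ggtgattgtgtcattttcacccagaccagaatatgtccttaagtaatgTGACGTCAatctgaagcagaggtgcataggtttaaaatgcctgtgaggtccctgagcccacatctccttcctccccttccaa

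*Gzmg*, chr14:56159580-56159709: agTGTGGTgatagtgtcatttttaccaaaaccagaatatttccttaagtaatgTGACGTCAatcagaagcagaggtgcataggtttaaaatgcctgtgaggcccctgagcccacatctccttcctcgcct

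The 5 windows were alike, with an identity between 61.3% and 94.7% over the 10 pairs and a median of 75.9%. Each window was set by its RefSeq start, and alike stretches stand at different distances from it, which also lowers the identity of some pairs. With the window of *Gzmb* their identity was between 41.8% and 50.7%. TGACGTCA stood in the windows of *Gzmc*, *Gzmf* and *Gzmg* and in 1.30% of 32851 windows of the same length over all promoters. TGTGGT stood in those of *Gzmc*, *Gzmd*, *Gzme* and *Gzmg* and in 7.26% of all windows. It was also in the windows of *Gzmb*, *Gzma* and *Prf1*, which are not printed, so that it does not set the 5 genes apart. In *Gzmc* TGTGGT stood at -108 from the start and in *Gzmg* at -128, near the edge of the window. The window of *Gzmf* begins at letters that line up with the end of the motif in *Gzmg*. Its lack of a match is therefore not read as a difference in sequence. The T-box motif AGGTGTGA stood in none of the 5 and in 0.539% of all. A match describes the letters of the window and no bound factor.

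*Gzmb*, the granzyme that starts caspase-driven death of target cells, had 5149 CPM in M1 and 3797 in M2, with 5391 in M5 and 5178 in M6, and 89.9% of thinned cells carried it (B cells 10.7%). *Gzmc* had 3602 CPM in M1 and 3394 in M2, with 5715 in M5 and 5670 in M6. *Gzmd* had 1337, 1607, 3528 and 2745 CPM in this order. In CPM both M1 and M2 lay below M5 and M6 for *Gzmb*, *Gzmc* and *Gzmd*. They did so for *Gzma* and *Prf1* above, and for *Gzmb* the gap between M1 and M6 was small. By share of thinned cells M1 was instead the highest library for both *Gzmb* and *Gzma*. *Gzmb* was in 894 of 946 cells of M1, 752 of 862 of M2, 1093 of 1222 of M5 and 1054 of 1188 of M6. *Gzma* was in 938, 847, 1190 and 1165 of them. *Gzme* had 660, 629, 1352 and 1105 CPM, *Gzmf* 867, 1281, 3091 and 2333, and *Gzmg* 402, 428, 1300 and 674. The split of the libraries in CPM was the same in each of these. *Gzmk* and *Gzmm* were low, at 26.0 and 3.06 CPM, and *Gzmn* was at 0.683 CPM.

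**Figure D2:**
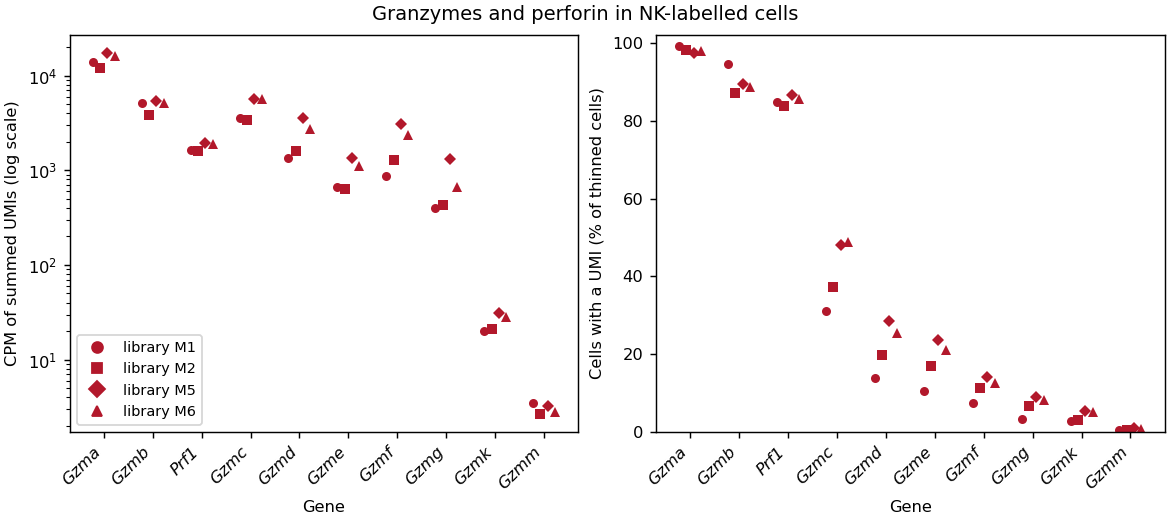
Granzymes and perforin in NK-labelled cells, as CPM of summed UMIs (left, log scale) and as the share of cells with a UMI after thinning to 2000 UMIs (right), with 1 point for each library. *Gzma* was in 98.2% of cells and *Gzmg* in 6.99%, and the CPM of M1 and M2 lay under those of M5 and M6 for *Gzmc* to *Gzmg*.

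Levels of these genes came from few cells. After thinning, 42.2% of NK-labelled cells carried a UMI of *Gzmc*, 22.5% of *Gzmd*, 18.6% of *Gzme*, 11.5% of *Gzmf* and 6.99% of *Gzmg*, with 6.25%, 3.57%, 1.79%, 5.36% and 3.57% in B cells. The 220 cells (5%) with the most UMIs of a gene held 26.2% of all UMIs of *Gzma* and 26.6% of those of *Ncr1*, but 52.8% of *Gzmc*, 77.6% of *Gzmd*, 75.3% of *Gzme*, 97.9% of *Gzmf* and 98.6% of *Gzmg*. A single cell held 3158 *Gzmf* UMIs. The CPM of *Gzmd* to *Gzmg* is for this reason weighted to deep cells. As the mean over cells of each cell's own CPM, *Gzmd* had 1401 in place of 2483, *Gzme* 577 in place of 998, *Gzmf* 1227 in place of 2069 and *Gzmg* 351 in place of 769.

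The same cells carried several of them. Because single UMIs occurred in B cells, co-detection was read at 3 or more UMIs of each gene. Of 151 cells with *Gzmg*, 95.4% also had *Gzmc*, 96.0% *Gzmd*, 87.4% *Gzme* and 65.6% *Gzmf*. Of 616 cells with *Gzmd*, 92.7% had *Gzmc* and 63.6% *Gzme*, but 23.5% had *Gzmg*. Of 1183 cells with *Gzmc*, 48.3% had *Gzmd* and 12.2% *Gzmg*. Of 238 cells with *Gzmf*, 91.6% had *Gzmc* and 81.5% *Gzmd*, but 64.3% had *Gzme* and 41.6% *Gzmg*. *Gzmc* was thus in most cells that carried another member, whereas *Gzmf* and *Gzme* were often found apart. None of the 5 genes reached 3 UMIs in 70.2% of cells, 1 did in 14.4% and all 5 in 2.09%. The 3′ transcript ends of these genes shared some 50-base words with one another, 9.96% of the words of *Gzmd*, 11.6% of *Gzme*, 12.7% of *Gzmf* and 25.1% of *Gzmg*, so that part of their counts is uncertain between them. *Gzmc* shared none.

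**Figure D3:**
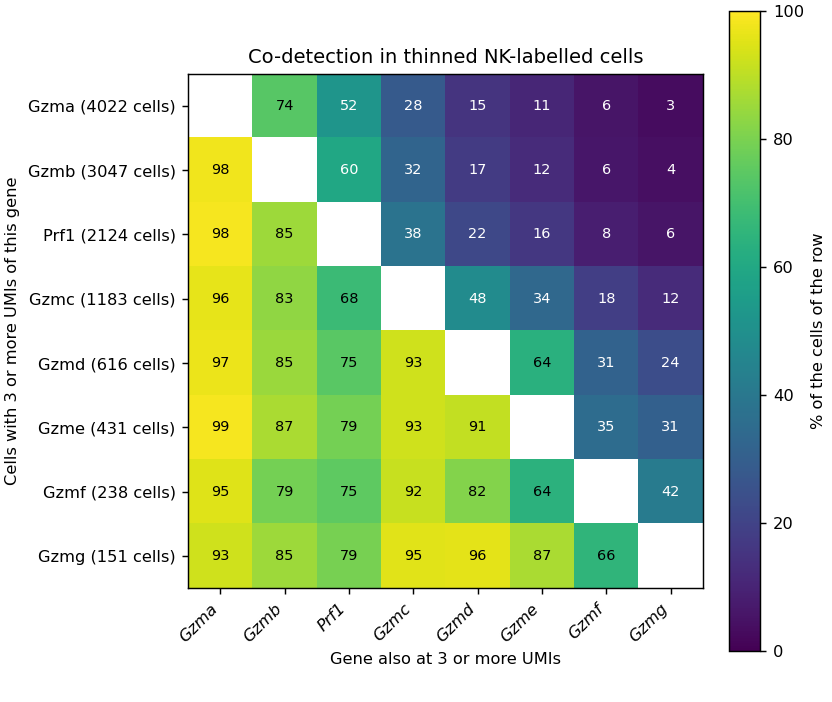
Share (%) of the thinned NK-labelled cells with 3 or more UMIs of the gene of the row that also had 3 or more UMIs of the gene of the column, with the number of cells of each row in brackets. Of the 151 *Gzmg* cells 96.0% had *Gzmd*, whereas of the 616 *Gzmd* cells 23.5% had *Gzmg*.

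To describe these cells, a class was set at 5 or more summed UMIs of *Gzmd*, *Gzme*, *Gzmf* and *Gzmg* in a thinned cell, a limit chosen after seeing that 14.3% of B cells had at least 1 such UMI and that 0 of 112 had 5, which allows a share of up to 2.68%. In the NK label 638 of 4218 cells (15.1%, 14.1 to 16.2) were in the class. The share was 7.61% in M1 (6.0 to 9.49) and 13.7% in M2 (11.5 to 16.2), with 19.9% in M5 (17.7 to 22.2) and 17.3% in M6 (15.1 to 19.5). M1 was the lowest of the libraries, and the interval of M6 overlapped with those of both M2 and M5. A further 700 cells with 1 to 4 such UMIs lay near the limit and were left out of both classes. The class is a range of a score and no cell type. It was also present in the ILC label, at 19.1%, and in T cell EFF, at 12.6%, and it was rare in NKT, at 1.12%, and in Stroma, at 0.0767%.

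Cells of the class were deeper. Their median was 14186 UMIs, against 4960 in the 2880 cells with no UMI of these 4 genes. From the shallowest to the deepest of 5 equal groups of the thinned cells, by UMIs before thinning, the class made up 4.86%, 5.34%, 9.12%, 16.3% and 40.0%. The libraries had the same order in depth as in their share of the class. The median of NK-labelled cells was 4213.5 UMIs in M1, 5569 in M2, 5612 in M6 and 6051.5 in M5. The part of depth in the differences between libraries in this class, or in *Gzmc* to *Gzmg*, was not tested. Scores over 0.25 from the doublet caller were in 0.470% of the class and 1.25% of the cells without. By library they were in 1.39% and 1.46% in M1, 0% and 2.88% in M2, 0.412% and 0.540% in M5, and 0.488% and 0.395% in M6, so that most of the difference came from M2 and M6 ran the other way. The contrast of the class within the NK label is therefore given also for cells of 4000 to 12000 UMIs, in which the medians were 7249 and 6019.5.

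Between the class and the cells with none, 83 of 8330 genes (0.996%) were at least 1.5-fold higher in each of the 4 libraries and 485 (5.82%) were lower, leaving out the 4 genes that set the class. Of 212 tested genes on the lists of this report, 8 (3.77%) were higher and 51 (24.1%) lower. The median log2 difference was -0.41 over the listed genes and -0.17 over all genes, a shift for which the values below are not corrected. In the band of 4000 to 12000 UMIs 136 genes (1.54%) were higher and 316 (3.57%) lower, and of 209 tested listed genes 16 were higher and 30 lower. The 2 calculations shared 55 higher and 196 lower genes. On thinned counts 141 (1.59%) were higher and 539 (6.09%) lower, with 16 and 51 of 212 listed genes, and without cells of a doublet score over 0.25, 85 (1.03%) and 507 (6.14%). With the class set at 1 or more UMIs, where B cells show a background, 54 (0.653%) were higher and 141 (1.7%) lower. Differences are log2 ratios of CPM plus a pseudocount of 5 CPM, as the median of 4 libraries.

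*Gzmc* was among the genes that rose most, at 12972 CPM in the class and 1202 without in M1, 12987 and 805 in M2, 11270 and 1732 in M5, and 13372 and 1774 in M6, a log2 difference of 3.17. *Havcr2*, which encodes the inhibitory receptor TIM-3, had 53.1 and 5.50 CPM in M1 and 57.3 and 2.95 in M2, with 88.4 and 5.14 in M5 and 63.3 and 4.70 in M6 (2.89). *Ifitm2*, of an interferon-inducible family of membrane proteins, had 1675 and 285, 2026 and 332, 1737 and 354, and 1840 and 377 CPM in the same order (2.41). In these 3 genes every value of the class lay above every value of the cells without, as in *Klrg1* and *Itga1* below. This held for other called genes too, such as *Thy1* and *Prf1*, so that it does not set the named genes apart. The share of all genes for which it held was not counted. *Klrg1*, an inhibitory lectin-like receptor of mature NK cells, had 225 and 83.3, 332 and 94.4, 343 and 131, and 335 and 108 CPM (1.48). *Itga1*, the integrin CD49a of tissue-resident lymphocytes, had 124 and 44.6, 195 and 42.6, 126 and 33.0, and 138 and 42.8 CPM (1.68).

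Further genes higher in the class were *Ifitm1* (log2 difference 3.07), the unconventional myosin gene *Myo10* (2.52), the stress gene *Gadd45g* (2.20), *Thy1* (1.42), *Ctla4* (1.35), *Prf1* (0.86) and *Tnfrsf9*, encoding the costimulatory receptor 4-1BB (0.84). All of these were also called in the band of 4000 to 12000 UMIs. *Spp1*, encoding osteopontin, was higher by 2.44, with 10466 and 1924 CPM in M1, 12621 and 2682 in M2, 12900 and 2381 in M5, and 14717 and 1889 in M6. Its RNA was in 64.6% of thinned NK-labelled cells, 45.5% of B cells and 93.3% of Stroma cells, and the part of free RNA in the difference was not tested.

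Among lower genes *Ccl5*, encoding the T cell and NK cell attractant RANTES, had 143 CPM in the class and 3661 without in M1 and 232 and 3212 in M2, with 231 and 5053 in M5 and 215 and 6292 in M6, a log2 difference of -4.52. *Klf2*, the factor that maintains lymphocyte circulation, had 42.4 and 409, 63.3 and 488, 56.7 and 402, and 63.0 and 397 CPM (-2.79). The groups did not overlap for either gene, nor for *Itga2* below. Other called genes, such as *Cd27* and *Junb*, did not overlap either, so that this does not set the named genes apart. The share of all genes without overlap was not counted. *Itga2* had 11.4 and 58.6, 9.43 and 38.6, 12.9 and 62.8, and 12.9 and 66.2 CPM (-1.94). *Itga2* also passed the rule in the band of 4000 to 12000 UMIs.

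The chemokine genes *Ccl3* (-3.52) and *Ccl4* (-3.16), the homing receptor genes *Cxcr4* (-2.64) and *Cxcr3* (-1.41), both chains of the interleukin 18 receptor (*Il18rap*, -1.66, and *Il18r1*, -1.42), *Cd27* (-1.54) and *Eomes* (-0.91) were lower too, in the band as well. *Itgam* (-1.81), *Tcf7* (-1.54), *Zeb2* (-1.37) and *Ifng* (-1.32) were lower over all cells and did not pass in the band. *Eomes* was still present, at 149 CPM in the class in M1 and 201 in M2, with 181 in M5 and 197 in M6. *Gzma* (0.61), *Gzmb* (0.63), *Ncr1* (0.18), *Klra3* (-0.28), *Klra7* (-0.05) and *Tnfrsf18* (-0.54) did not pass the rule. In the band *Gzmb* did pass, with 1.17.

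Genes best known from other cell types moved with the class in both directions. *Ctsg*, encoding the granule protease cathepsin G of neutrophils, was higher by 3.21, with 85.6 CPM in the class and 0.204 without in M1, 19.5 and 0.184 in M2, 84.8 and 0 in M5, and 21.3 and 0.348 in M6. Of 2 tested neutrophil markers 0 passed in either direction. The basophil protease gene *Mcpt8* was higher by 1.99, and by 2.02 in the band of 4000 to 12000 UMIs, where 1 of 2 tested mast cell and basophil markers was higher, as over all depths. Of 8 tested macrophage and monocyte markers 0 were higher and 5 lower, *C1qa* by -1.33, against 0.996% and 5.82% of all genes. In the band 0 of 8 macrophage and monocyte markers passed in either direction, and of 3 tested neutrophil markers 0 were higher and 1 lower, against 1.54% and 3.57% of all genes. Regulatory T cell markers were higher for 1 of 3 tested and for 2 of 3 in the band, and dendritic cell markers lower for 2 of 4 and for 1 of 3 in the band. Of the markers of CT26 tumor cells and fibroblasts 1 of 6 was lower, and 0 of 5 in the band, and endothelial markers were higher for 0 of 1 tested and for 1 of 1 in the band. Whether these UMIs came from RNA of other cells or were made by the cells of the class was not tested.

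*Ifitm1* and *Ifitm2*, named because they were among the genes that rose most, did not move with the listed interferon-response genes. Of 15 of these, 0 were higher in the class and 9 lower, where 5.82% of all genes were lower. *Ifi27l2a* differed by -1.46, *Rsad2* by -1.48, *Isg15* by -1.34 and *Irf7* by -1.07. In the band 3 of 14 were lower, where 3.57% of all genes were. Of 15 early-response and stress genes, which also respond to tissue dissociation, 0 were higher and 8 lower, with *Fos* at -1.80 and *Dusp1* at -1.67, and in the band 5 of 15 were lower.

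The same *Gzmd* to *Gzmg* class in the ILC label, on full counts alone and at median depths of 17313 and 8110.5 UMIs, had 74 of 8368 genes (0.884%) higher and 206 (2.46%) lower. There *Gzmc* differed by 2.78 (log2), *Klrg1* by 2.09, *Havcr2* by 1.77, *Ccl5* by -1.78 and *Klf2* by -1.26, and *Eomes*, with -0.37, was not called.

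**Figure D4:**
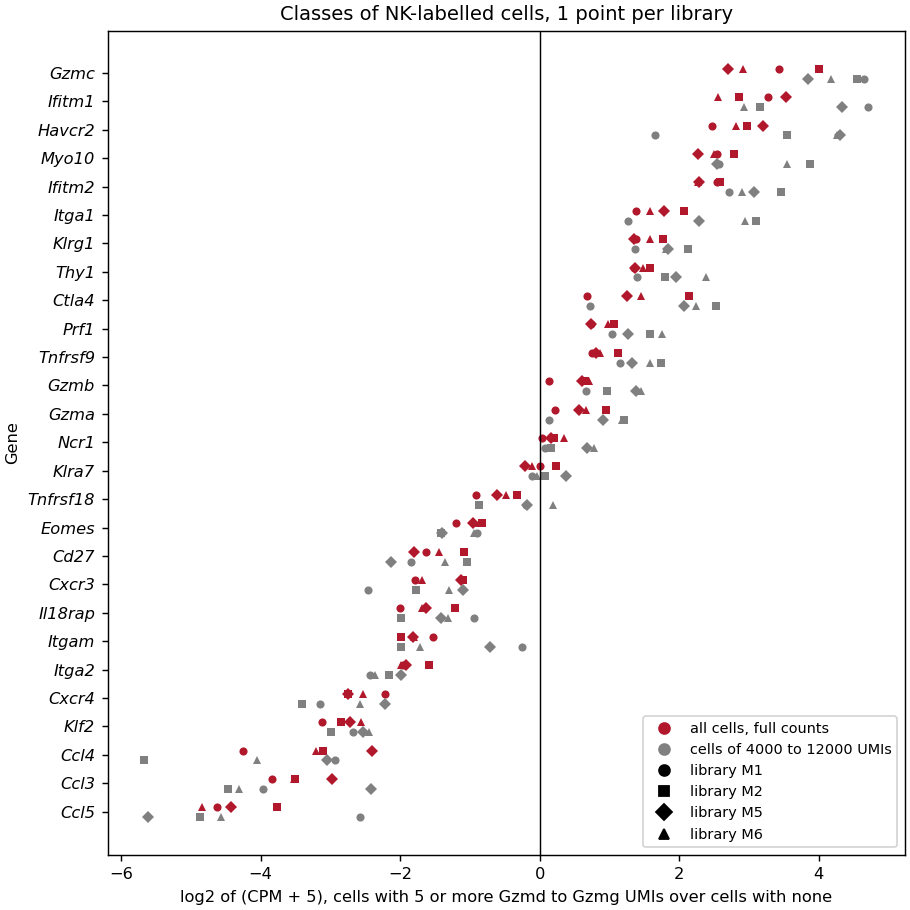
Log2 ratio of CPM plus 5 between NK-labelled cells with 5 or more summed *Gzmd* to *Gzmg* UMIs and those with none, with 1 point for each library, over all cells (red) and in cells of 4000 to 12000 UMIs (grey). Of the genes plotted *Gzmc* was highest, with a median of 3.17, *Ncr1* lay near 0, with 0.18, and *Ccl5* was lowest, with -4.52. The genes were picked for the plot after their values were seen.

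Markers of NK cell maturation were read next. *Cd27*, a marker of less mature NK cells, was in 22.4% of thinned cells and *Itgam* (CD11b), a marker of mature ones, in 6.73%, beside 4.46% and 2.68% of B cells. *Klrg1* was in 21.4%, beside 0 of 112 B cells, with 120 CPM in M1 and 151 in M2, with 221 in M5 and 187 in M6. *Itga1* was in 9.96% of cells, beside 0 of 112 B cells, and *Klrg1* was in 37.9% of the cells with *Itga1* and in 19.6% of those without. *S1pr5*, the sphingosine phosphate receptor by which mature NK cells leave tissue, had 3.59 CPM, and *Cx3cr1* 2.05 CPM. Of 15 tested genes for tissue residency and type 1 innate lymphoid cells, 0 were higher in the NK than in the ILC label in each library and 14 were lower, against 19.8% and 23.7% of all genes. *Cxcr6* had 9.40 CPM in the NK label and 110 in the ILC label, *Il7r* 9.76 and 84.9, and *Itga1* 75.5 and 69.7. RNA of other cells differed between these labels as well. The summed level of 11 T cell markers was 1280 CPM in the NK label and 1986 in the ILC label, with 10 of them lower in the NK label by the 1.5-fold rule, against 2.97% of all genes. The macrophage and monocyte markers summed to 266 and 1043 CPM and the dendritic cell markers to 173 and 864. The part of such RNA in the differences between the NK and ILC labels was not tested. *Zfp683*, the residency factor Hobit, had no UMI in NK-labelled cells, which allows up to 0.0758 CPM.

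Among transcription factors *Irf8* had 2127 CPM in M1 and 1981 in M2, with 2024 in M5 and 2170 in M6. *Id2*, the repressor needed by all innate lymphocytes, had 626, 659, 858 and 858 CPM. *Runx3* had 459, 441, 484 and 457 CPM. These 3 genes were in 96.0%, 67.0% and 61.4% of thinned cells, beside 62.5%, 13.4% and 9.82% of B cells, which express *Irf8* themselves. *Tbx21* (T-bet) had 57.6 CPM, close to the 60.8 of the ILC label and the 69.8 of T cell EFF. *Tox* had 12.3 CPM against 89.9 in T cell EFF. *Irf4* had 0.935 CPM against 25.2.

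The Ly49 receptors were led by 2 genes. *Klra3* (Ly49C; chr6:130323289-130337574) had 504 CPM in M1 and 454 in M2, with 520 in M5 and 591 in M6, and was in 51.3% of thinned cells. *Klra7* (Ly49G; chr6:130218605-130233322) had 395, 395, 367 and 388 CPM, and was in 34.5%. Both were even over the libraries. Of the other 9 members in the table *Klra5* had 40.0 CPM, *Klra1* 38.1, *Klra4* 23.0 and *Klra9* 11.8, and the others lay under 4 CPM. No Ly49 UMI was found in 27.2% of cells, 1 gene in 46.9%, 2 genes in 22.1% and 3 in 3.44%. *Klra3* and *Klra7* were together in 17% of cells, where the product of their shares gives 17.7%, *Klra3* alone was in 34.3% and *Klra7* alone in 17.5%. In 3′ ends 39.0% of the words of *Klra3* were shared with other members, 27.0% of those of *Klra7* and 49.0% of those of *Klra9*, and 83.8% of *Klra9* cells also had *Klra3*, against 50.4% of the others. Counts within this family are thus uncertain between its members. The mice were Balb/c and the counts were made on the mm10 reference. What strain differences do to counts of this family and of *Klrb1c* was not tested.

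Receptors outside the Ly49 family varied in how they compared with T cell EFF. *Klrk1*, encoding NKG2D, had 423 CPM in M1 and 412 in M2, with 338 in M5 and 368 in M6, beside 369 in T cell EFF. *Klrd1* (CD94) had 649 CPM, beside 689, and its inhibitory partner *Klrc1* (NKG2A) 164, beside 423. In 3′ ends 60.9% of the words of *Klrc1* were shared with *Klrc2* and *Klrc3*, so that its count is uncertain between them. *Klrb1c* (NK1.1) had 108, 123, 99.2 and 115 CPM over the libraries, beside 4.11 in T cell EFF. The adaptor genes *Tyrobp* and *Fcer1g* had 1659 and 1125 CPM, beside 129 and 266. *Fcgr3*, the Fc receptor for antibody-directed killing, had 80.6 CPM, beside 28.6. Of 12 tested genes for the Nkrp1 and CD94/NKG2 group, 8 passed the 1.5-fold rule as higher than in T cell EFF and 2 as lower, against 3.61% and 5.38% of all genes.

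The targets of the bispecific differed from each other. *Tnfrsf18*, encoding GITR (chr4:156026164-156028895), had 154 CPM in M1 and 135 in M2, with 143 in M5 and 158 in M6, and was in 28.7% of thinned cells (57.7% without thinning), beside 2.68% of B cells. In T cell EFF it had 277 CPM in M1 and 354 in M2, with 336 in M5 and 400 in M6, and was in 49.7% of cells. Every value of the NK label was thus below every value of T cell EFF. *Pdcd1*, encoding PD-1 (chr1:94038305-94052553), had 15.4, 9.05, 12.7 and 5.01 CPM in the NK label, against 563, 764, 515 and 468 in T cell EFF. It was in 1.14% of thinned NK-labelled cells, no more than in B cells (1.79%), and in 63.2% of T cell EFF cells.

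Most *Pdcd1* UMIs were in few cells. A UMI of *Cd3d*, *Cd3e*, *Trac*, *Cd8a*, *Cd8b1* or *Cd4* was in 787 of the NK-labelled cells, and these held 299 *Pdcd1* UMIs, 73.1% of all. *Pdcd1* was in 60 of them (7.62%), at a median of 8590 UMIs, and in 71 of the other 3611 (1.97%), at 4952. More of the cells with *Pdcd1* were thus without these chains, and 16 cells held 50% or more of its UMIs. In these 3611 cells *Pdcd1* had 3.81 CPM in place of 10.3, while *Tnfrsf18* stayed at 148 CPM, *Icos* had 147 in place of 148 and *Ctla4* 81.9 in place of 88.3. The levels of *Tnfrsf18* and *Icos* thus barely moved when these cells were left out. *Tnfrsf4* (OX40) had 8.34 CPM, and 2.93 CPM in a stricter selection that also left out cells with *Cd3g*.

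*Tnfrsf9* had 749 CPM in M1 and 740 in M2, with 906 in M5 and 956 in M6, and was in 61.8% of thinned cells, beside 2.68% of B cells. M1 and M2 were again the lower libraries. It was near its level in T cell EFF, 925 CPM. *Icos* and *Cd28* had 148 and 132 CPM, beside 421 and 272. Of 8 genes for checkpoint receptors tested, 5 passed the 1.5-fold rule as lower than in T cell EFF (5.38% of all genes) and 1, *Pvrig*, as higher (3.61%). *Lag3* had 69.8 CPM beside 392, *Havcr2* 24.7 beside 120 and *Ctla4* 88.3 beside 317. *Tigit* had 2.88 CPM and *Cd96* 43.3, beside 3.69 and 58.8.

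Some T cell receptor and CD3 genes were high in the NK label and others were not. *Trbc1*, the constant part of the β chain (chr6:41538218-41539881), had 847 CPM in M1 and 795 in M2, with 821 in M5 and 844 in M6, and was in 77.5% of thinned cells, beside 4.46% of B cells. *Trdc*, the constant part of the δ chain (chr14:54142851-54148868), had 322, 290, 272 and 308 CPM, in 39.5% of cells, beside 0.893%. In T cell EFF *Trdc* had 13.4 CPM. *Cd3g* had 96.6 CPM, *Cd3d* 26.6, *Trac* 14.4 and *Cd3e* 9.94, beside 1614, 810, 542 and 448 in T cell EFF.

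The ratios between these genes differed between the labels, and the source of the RNA was not tested. *Trbc1* UMIs per *Trac* UMI were 42.5 in M1 and 65.7 in M2, with 50.8 in M5 and 82.0 in M6, in the NK label, and 2.02, 0.528, 1.91 and 1.41 in T cell EFF, where M2 stood apart. Over all libraries *Trdc* UMIs per *Trac* UMI were 20.5 in the NK label and 0.0246 in T cell EFF. *Cd3g* UMIs per *Cd3e* UMI were 6.78 in M1 and 14.7 in M2, with 8.11 in M5 and 12.8 in M6, against 4.07, 3.66, 3.53 and 3.24 in T cell EFF. For *Cd3g* and *Trbc1* all 4 ratios of the NK label lay above those of T cell EFF. In the 3611 cells without the 6 chains named above *Trbc1* had 853 CPM, *Trdc* 314 and *Cd3g* 61.2. The 3′ ends of *Trdc* and *Cd3g* shared no words with another gene, whereas *Trbc1* shared 15% with *Trbc2*. These are reads of constant regions, which do not tell a rearranged from an unrearranged locus.

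**Figure D5:**
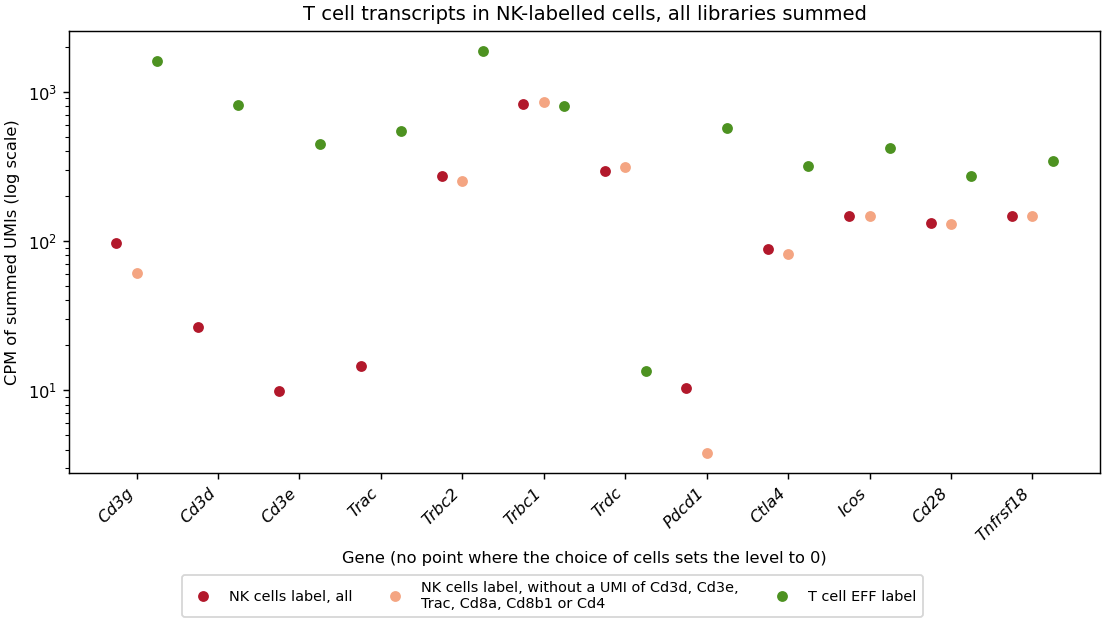
CPM of summed UMIs (log scale), over all libraries, of T cell receptor, CD3 and target genes in NK-labelled cells, in the 3611 of them with no UMI of *Cd3d*, *Cd3e*, *Trac*, *Cd8a*, *Cd8b1* or *Cd4*, and in T cell EFF. *Trbc1*, at 827 and 853 CPM, and *Trdc*, at 296 and 314, did not fall without these cells, *Pdcd1* fell from 10.3 to 3.81 CPM, and *Tnfrsf18* was at 148 CPM in both.

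Of the chemokine and cytokine genes listed, *Ccl5* had the most UMIs, with 2833 CPM in M1 and 2456 in M2, with 2826 in M5 and 4069 in M6, in 59.7% of thinned cells, beside 5.36% of B cells. With all cells weighted equally, as the mean of each cell's own CPM, its level was 6600. *Xcl1*, which draws cross-presenting dendritic cells, had 183, 216, 159 and 180 CPM, beside 447 in the ILC label. *Ifng* had 40.1, 37.7, 40.7 and 42.1 CPM, beside 110 in the ILC label and 384 in T cell EFF. *Ifng* was in 8.42% of thinned cells and in 0 of 112 B cells. *Tgfb1* had 470 CPM, and *Fasl*, a death ligand, 135, beside 101 in T cell EFF.

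The receptors for these and other signals were led by *Il2rb*, the chain shared by interleukin 2 and interleukin 15, with 1165 CPM in M1 and 1049 in M2, with 1171 in M5 and 1199 in M6. *Ifngr1* had 998 CPM, beside 528 in T cell EFF, whereas *Ifngr2*, the other chain of the same receptor, had 5.16, beside 11.2. *Il2ra* had 7.05 CPM, beside 105. *Il18rap* and *Il18r1* had 147 and 104 CPM and *Tgfbr2* 160. Of trafficking receptors, *Ccr2* had 382, 486, 418 and 431 CPM over the libraries, beside 88.6 in T cell EFF. *Cxcr3* and *Ccr7* had 12.1 and 21.4 CPM, beside 23.3 and 359.

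Proliferation genes were detected in a minority of cells. A UMI of *Mki67*, *Top2a*, *Birc5*, *Ccna2* or *Cdk1* was in 17.1% of thinned cells (16.0 to 18.3), at 21.0% in M1 and 21.2% in M2, with 15.1% in M5 and 13.1% in M6. M1 and M2 were here the higher libraries. The share was 8.04% in B cells (3.74 to 14.7), 36.0% in Stroma and 37.8% in T cell EFF, and the proliferation genes summed to 5601 CPM in Stroma, so that the part of free RNA in single UMIs was not told apart. Within the NK label the share was 23.0% in the *Gzmd* to *Gzmg* class and 15.6% in cells with none of those genes, and higher in the class in each library. Between cells with and without such a UMI, 336 of 8358 genes (4.02%) were higher in each library by 1.5-fold or more and 29 (0.347%) lower, on full counts alone and at median depths of 10009 and 5314 UMIs. Over the same 5 depth groups it was 13.5%, 11.3%, 10.2%, 17% and 33.8%, and the part of depth in the difference was not tested. Of 18 proliferation genes, 17 were higher in the NK than in the ILC label in each library, where 19.8% of all genes were, and all 18 were lower than in T cell EFF, where 39.5% were. The exception was *Mki67*, named after its values were seen, which had 94.3 CPM in the NK label, 72.8 in the ILC label and 200.5 in T cell EFF and was higher in the NK than in the ILC label in 3 of 4 libraries. Of its UMIs in the NK label 83.9% were in 5% of the cells, and as a mean over cells it had 46.6 CPM. The thinned share of cells with a UMI of the 5 genes above did not run with these sums, at 18.6% in the ILC label (17.5 to 19.8) and 17.1% in the NK label, so no order of the NK and ILC labels is read from either.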

How the data were processed

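The authors deposited UMI counts per gene and cell (Cell Ranger 3.0.2 per the labels, mouse build mm10), already filtered, with their own label for each cell, made by correlation with ImmGen profiles. No clustering was run here. UMIs were summed per label and library and scaled to CPM. Cells were thinned to 2000 UMIs, and intervals are exact (95%). Thinning and intervals were tested on simulated data. Alternatives were other thinning depths, scalings, denominators and selections of cells.

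The members and gene lists were chosen with earlier results of these data known. Named genes are those of the lists, the 20 highest, the 15 with the largest ratio to the highest other label, the 10 most uneven over libraries, the 10 most variable over cells, and up to 15 in each direction of a class contrast. A call needs at least 1.5-fold in each of the 4 libraries and 10 CPM.

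Doublets were scored with scrublet for each library (expected rate 0.06), and none were removed. Its automatic threshold called 260, 142, 0 and 41 cells of M1, M2, M5 and M6, so a score of 0.25 was used. The comparison of treatment groups that had been planned was not run, since the libraries could not be matched to tumors, and no test was made. Gene positions are from GENCODE (GRCm38), promoters from RefSeq (GRCm38.p6). Python 3.11.15 and scanpy 1.11.5 were used. Genes of 1 list are described by counts and sums, without names.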

Additional observations from a re-analysis of the deposited data

How the results depend on the processing

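The share of the NK label was 12.95% of all cells, 29.3% of lymphocyte-labelled cells, and between 11.7% and 14.3% when each library was left out in turn. The share of cells with 5 or more *Gzmd* to *Gzmg* UMIs, 15.1% at 2000 UMIs, was 11.5% at 1000 UMIs, 24.2% at 4000 UMIs and 21.1% with no thinning. It was 31.7% at 1 or more UMIs, 13.2% without cells that had a UMI of a T cell gene, 13.1% without cells of over 10% mitochondrial UMIs, and between 13.2% and 17.3% with each library left out. Genes higher in this class numbered 83, and 136 in cells of 4000 to 12000 UMIs, 141 in thinned counts and 54 with the class at 1 or more UMIs. Genes lower numbered 485, and 316 in cells of 4000 to 12000 UMIs and 141 with the class at 1 or more UMIs. The cause of these differences was not tested. Leaving out cells of high doublet score moved none of these by over 1.5 times. As a mean over cells *Mki67* had 46.6 CPM in place of 94.3, *Top2a* 71.4 in place of 130 and *Spp1* 3658 in place of 5533. No CPM of the genes followed in this way moved by over 1.5 times with 1 library left out. A share or a CPM cannot change sign, so that none of them could reverse. Of 37 shares followed, 37 were counted as moved at 1000 UMIs and 36 with no thinning. Of 36 CPM followed, 36 were counted as moved when taken as a mean over cells.

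The alternatives for the class (the depth band, thinned counts, doublet scores and 1 or more UMIs), like its limit of 5 UMIs, were chosen after seeing the data. The alternatives between treatment groups were not run. No paired analysis was possible because the libraries could not be matched to tumors and no test was made. Depth limits genes of low level, so that a share near that of B cells, as for *Pdcd1*, cannot be told from free RNA. With 4 libraries of unknown treatment, a difference between libraries cannot be assigned to dose, animal or preparation.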

Other observations

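The ILC label, used for comparison, held more myeloid RNA, with macrophage and monocyte markers at 1043 CPM in sum against 266 in the NK label, and interferon-response genes summed to 4538 CPM in the Myeloid label. The part of this RNA was not tested. Of 15 interferon-response genes, 0 were higher in the NK than in the ILC label in each library and 12 were lower, where 19.8% and 23.7% of all genes were. *Ifi27l2a* had 139 CPM, beside 396 in the ILC label and 1017 in T cell EFF, and *Isg15* had 107, beside 203 and 193. Of 14 glycolysis genes 1 was higher and 10 lower than in the ILC label. *Gapdh* had 2160 CPM and *Ldha*, which makes lactate, 1086. Of 15 early-response genes 1 was higher and 11 lower. A helper innate lymphoid cell list of 12 genes in the table had 3 genes at 10 CPM or more and 7 under 1 CPM, with a summed level of 113 CPM in M1 and 134 in M2, with 115 in M5 and 96.4 in M6.

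The genes most uneven over the libraries were markers of other cells. *S100a9*, a neutrophil gene, had 27.8 CPM in M1 and 9.90 in M2, with 19.4 in M5 and 172 in M6, and *S100a8* 6.81, 2.81, 9.19 and 79.8. The 6 cells with the most *S100a9* held 50% or more of its UMIs. *Fn1*, a stromal gene, had 60.8, 79.2, 12.4 and 21.5 CPM, and *C1qa*, a macrophage gene, 62.2, 60.4, 12.7 and 11.6. The summed level of CD8 T cell markers was between 6.01 and 20.3 CPM, beside 1072 in T cell EFF, and *Trav11* and *Trav11d* of invariant NKT cells were at 0.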
